A study of Mus musculus with 2 samples.

Results

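Monocyte identity genes are the transcripts by which mouse blood monocytes are usually recognised. The 9 genes described here are Ly6c1, Ly6c2, Plac8, Vcan, F13a1, Fn1, Hp, Treml4 and Ace, out of 23786 genes that could be named on the array. They were chosen by name, and every non-control probe whose transcript accession belongs to one of them was taken, which gave 16 probes. Of these probes 15 were well above background on both arrays by the scanner program's own call, and 1 of the Treml4 probes was above it on neither. All 9 genes therefore had a measured value on both arrays.

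Classical monocytes carry much Ly6C on their surface, leave the marrow for inflamed tissue and can become macrophages or dendritic-like cells there. Non-classical monocytes carry little Ly6C, patrol the inside of blood vessels and arise from the classical type. Ly6c1, Ly6c2, Plac8, Vcan, F13a1, Fn1 and Hp belong to the classical programme, and Treml4 and Ace to the non-classical one. In marrow cultures grown with GM-CSF, a cytokine for myeloid cells, monocytes are among the precursors that give rise to the dendritic-like and macrophage-like cells at harvest.

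The samples were bone marrow-derived dendritic cells of C57BL/6J mice, grown from femoral marrow with 10 ng/ml GM-CSF and collected on day 6. The cells of 1 culture carried the label Egr1-deficient and those of the other the label WT. Both are labelled male, and each was read on 1 one-colour array, called the KO-labelled array and the WT array here. EGR1 is a zinc-finger protein that binds DNA and is made within minutes of many stimuli. The way the Egr1 gene was inactivated, and the number of mice behind each culture, are not stated in the sources used here. With 1 array per label there is no replicate, so no p-value was computed and every difference is a single reading.

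Some readings went against the labels. The Egr1 probe gave 1212 on the KO-labelled array and 379.7 on the WT array. Where that probe lies relative to the inactivated part is unknown here, so it neither bears out nor refutes the label, and each direction below rests on the labels as given. Xist, the X-inactivation RNA of female cells, read 4559 on the KO-labelled array and 3425 on the WT array. Of the Y-linked genes Ddx3y, Kdm5d, Uty and Eif2s3y, a single dim Eif2s3y probe was above background, so the readings of both arrays went against the label male. On the KO-labelled array 59.8% of 59305 non-control spots were well above background, against 55.2% on the WT array. The mean net signal of the negative controls was 41.3 on the KO-labelled array, outside the range set by the scanner program. It was 38.7 on the WT array, within that range. The effect of this on the dim readings was not tested. The dendritic cell markers H2-Ab1, Itgax, Flt3 and Zbtb46 were above background on both arrays, whereas Xcr1 and Clec9a, which mark a subset of conventional dendritic cells, were above it on neither.

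The monocyte genes differed little between the arrays, and most were slightly lower on the KO-labelled array. Differences are log2 signal, after subtracting each array's 75th percentile, of the KO-labelled array minus WT. Of the 9 genes, 8 were below 0 and 1 was above, where 57.4% of all 13725 genes above background on both arrays were below 0. The median over the 9 genes was −0.18, beside −0.05 over all 13725 genes. After loess normalization these medians were −0.054 and −0.031, and 5 of the 9 genes lay below the median of all genes, against 8 with the percentile scale. Under other processing settings 6 to 8 of the 9 genes were below 0. The range ran from −0.54 for Fn1 to 0.30 for Ace. None of the 9 genes reached 2-fold, a distance that 1.71% of all genes reached (0.707% higher and 1.01% lower), and none reached 1.5-fold, which 7.69% reached. Within 1.2-fold lay 6 of the 9 genes and 63.8% of all genes. By single probes, 13 of the 15 above background were below 0 and 2 above, where 56.9% of all named probes were below 0.

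**Figure D1:**
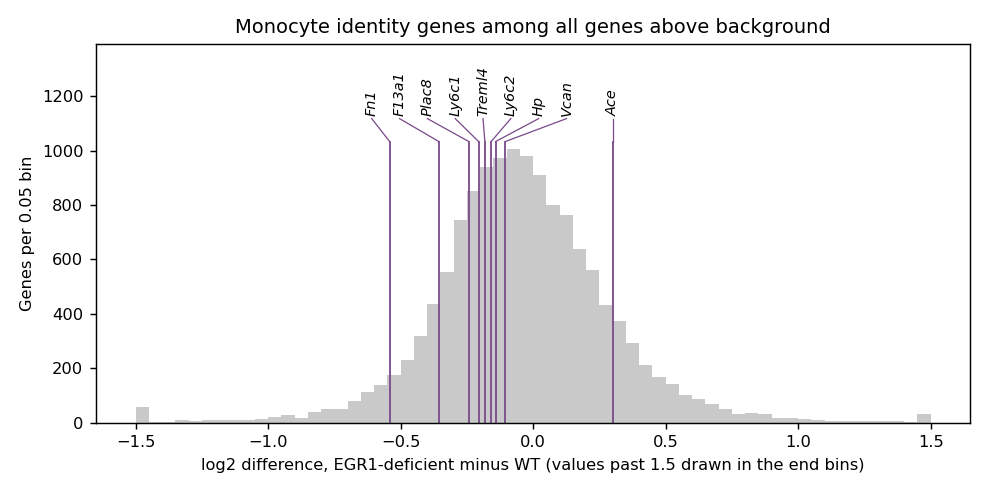
Histogram of the log2 difference (EGR1-deficient minus WT, in bins of 0.05) over 13725 genes above background on both arrays, with a line at each monocyte identity gene. 5 of the 9 genes lie between the 25th and the 75th percentile of all genes (−0.23 and 0.15), 3 lie below that range and Ace lies above it.

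The errors available are technical. Across 268 probes printed on 8 to 10 usable spots and above background in all of them, the difference between the arrays had a median SD of 0.07 log2 units over the spots of 1 probe. For each monocyte probe the SD quoted below is the median over the 30 such probes nearest to it in signal. The Ace, Treml4 and dimmer F13a1 probes all got the same SD, as did probes dimmer than these. For dim probes the match in signal is therefore loose. Different probes of the same gene disagreed more, with a median SD of 0.17 over 3571 genes with 2 probes. The differences of 6 of the 9 monocyte genes were larger than that second figure. Of all genes, 52.5% were further from 0 than Treml4, the smallest of these 6. A share of 58.5% was further from 0 than Ly6c2, which lies just under the figure. The root mean square of the SD between 2 probes was 0.31, and only Fn1 and F13a1 exceeded it. None of these figures covers the spread between cultures or mice.

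**Figure D2:**
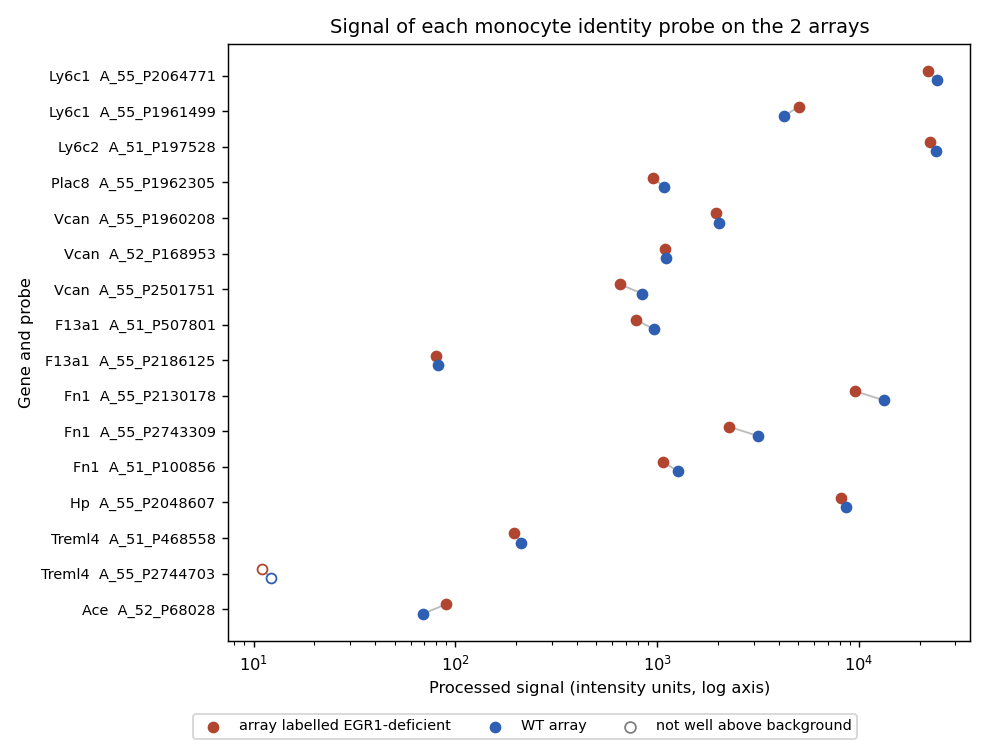
Processed signal (intensity, log axis) of each of the 16 probes on the KO-labelled array (red) and on the WT array (blue), with open points for the Treml4 probe that was above background on neither. The points of a probe lie close together in every row, with the widest gaps in Fn1, Vcan A_55_P2501751, F13a1 A_51_P507801 and Ace.

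Ly6c1 and Ly6c2 encode the 2 forms of Ly6C, a small surface protein held by a lipid anchor and the usual flow cytometry marker of classical monocytes. Both genes lie on chromosome 15. The brighter Ly6c1 probe, A_55_P2064771, read 22014 on the KO-labelled array and 24248 on the WT array, which is a difference of −0.21 ± 0.06 (technical SD). The Ly6c2 probe, A_51_P197528, read 22584 on the KO-labelled array and 24076 on the WT array, which is a difference of −0.16 ± 0.06. Both probes were thus slightly lower on the KO-labelled array, and both differences shrank to −0.05 and −0.0069 after loess normalization. The second Ly6c1 probe, A_55_P1961499, pointed the other way, at 5034 on the KO-labelled array and 4254 on the WT array (0.18 ± 0.07). After loess that probe was further from 0, at 0.30. Of the 4 monocyte genes with 2 or more probes above background, Ly6c1 is the one with probes on both sides of 0, as were 2299 of all 4594 such genes on the array. The direction of Ly6c1 therefore depends on the probe, and the mean of its probes was −0.01.

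Ly6c1 and Ly6c2 are near-identical neighbours, and the probe sequences are not used here, so signal from one may enter the probes of the other. The likeness of the pair extends to the sequence in front of the genes, which is shown for that reason. Each line gives the 250 bases before an annotated start in RefSeq, build GRCm38.p6, minus strand, from chr15:75048664-75048913 for Ly6c1 and chr15:75111938-75112187 for Ly6c2. Capitals mark GAGGAAGT, the core bound by the myeloid factor PU.1.
Ly6c1: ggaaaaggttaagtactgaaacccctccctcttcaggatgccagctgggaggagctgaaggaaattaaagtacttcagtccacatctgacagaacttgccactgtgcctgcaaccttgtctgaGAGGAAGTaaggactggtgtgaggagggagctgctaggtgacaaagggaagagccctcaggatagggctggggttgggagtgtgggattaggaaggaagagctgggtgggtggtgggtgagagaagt
Ly6c2: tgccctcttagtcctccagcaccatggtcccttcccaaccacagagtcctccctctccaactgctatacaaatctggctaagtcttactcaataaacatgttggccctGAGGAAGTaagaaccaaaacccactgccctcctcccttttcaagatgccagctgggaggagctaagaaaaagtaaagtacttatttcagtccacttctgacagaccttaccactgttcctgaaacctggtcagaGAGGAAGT
A local alignment of both windows paired 107 bases, of which 96 were identical (89.7%), with 3 gaps left out of the count. The motif that begins 127 bases before the Ly6c1 start faced, over all its 8 bases, the one that begins 8 bases before the Ly6c2 start, and Ly6c2 holds another at 142 bases. Pairs with other annotated starts of these genes gave 91.8% identity over 73 bases, 80.7% over 176 and 80.6% over 211. Their 3, 9 and 9 gaps were left out in the same way.

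RefSeq promoter windows were available for 7 of the 9 genes, as 12 windows of 250 bases with alternative starts counted separately. Fn1 and Hp had no window, so their promoters were not searched. On either strand, GAGGAAGT was found in both Ly6c2 windows and in the printed Ly6c1 window, but not in that of the other Ly6c1 start. The Ly6c2 windows overlap and share 1 match, which lies 142 bases before the printed start and 108 before the other. GAGGAAGT was found in none of the other 5 genes, and it occurs in 2.44% of all 32851 windows. The EGR motif GCGNGGGCG was found in none of the 12 windows and in 4.70% of all windows. The C/EBP motif TTGCNNAA was found in 1 Plac8 window, 12 bases before the start, and in 9.56% of all windows. No 2 matches within a window overlapped. These matches describe the letters of the windows only. Spi1, which encodes PU.1, read 1435 on the KO-labelled array and 1311 on the WT array (0.06).

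Other genes of the Ly6 cluster on chromosome 15 gave small differences too. Of 14 listed genes, 7 were above background on both arrays, of which 5 were below 0 and 2 above (Gpihbp1 at 0.22 and Ly6i at 0.19), with a median of −0.24. That median was −0.15 without a filter on dim probes, −0.10 after normexp and −0.08 after loess. Ly6d, Ly6h, Ly6m and Lypd2 were above background on the KO-labelled array only, and no gene of the list was so on WT only. Their at-least folds were 1.12, 0.89, 1.17 and 0.98. Their signals of 15.3 to 19.9 lay near the lowest signals above background (13.3 on the KO-labelled array, 16.3 on WT). Of all non-control spots, 59.8% were above background on the KO-labelled array and 55.2% on WT, so no direction is given for these 4 genes. Ly6a, which encodes the stem cell antigen Sca-1, read 3962 on the KO-labelled array and 4518 on the WT array (−0.26). Ly6g, the neutrophil surface marker, differed by −0.30, Lynx1 by −0.28 and Ly6e by −0.24. None of the 7 genes was 2-fold apart, and cross-hybridisation within this family was not tested.

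Plac8 on chromosome 5 encodes a small cysteine-rich protein that is abundant in classical monocytes. Its probe, A_55_P1962305, read 956.0 on the KO-labelled array and 1080.3 on the WT array, which is a difference of −0.24 ± 0.08. Hp on chromosome 8 encodes haptoglobin, a protein that captures free haemoglobin. Its probe, A_55_P2048607, read 8163 on the KO-labelled array and 8601 on the WT array, which is a difference of −0.14 ± 0.06. The Plac8 difference kept its sign under the 9 other processing settings, and that of Hp was 0.03 after quantile normalization. Neither gene had a second probe.

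Vcan on chromosome 13 encodes versican, a large chondroitin sulphate proteoglycan of the matrix that binds hyaluronan. It was read by 3 probes, and they did not give 1 answer. The brightest, A_55_P1960208, read 1959 on the KO-labelled array and 2013 on the WT array, which is a difference of −0.11 ± 0.08. A_52_P168953, which is assigned to the same transcript (NM_172955), read 1098 on the KO-labelled array and 1101 on the WT array (−0.07 ± 0.08). A_55_P2501751, assigned to transcript NM_001081249, read 657 on the KO-labelled array and 844 on the WT array (−0.43 ± 0.09). The probe assigned to the second transcript was thus the one clearly lower on the KO-labelled array, and the SD among the 3 probes was 0.20. Whether that probe reads its assigned transcript alone is unknown here. The brightest probe gave 0.01 after quantile normalization and 0.01 in the authors' series table, so no direction is given for it.

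F13a1, also on chromosome 13, encodes the catalytic A subunit of coagulation factor XIII, a transglutaminase that cross-links fibrin. The brighter probe, A_51_P507801, read 789 on the KO-labelled array and 964 on the WT array, which is a difference of −0.36 ± 0.09. The dimmer one, A_55_P2186125, read 79.8 on the KO-labelled array and 81.9 on the WT array (−0.10 ± 0.11). Both probes are assigned to the same transcript, and the dimmer one was within its technical SD of 0. By the brighter probe, 1782 of the 13725 genes were lower than F13a1.

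Fn1 on chromosome 1 encodes fibronectin, an adhesive glycoprotein of matrix and plasma, and it stood furthest from 0 among the monocyte genes. A_55_P2130178 read 9549 on the KO-labelled array and 13274 on the WT array, which is a difference of −0.54 ± 0.06, or 1.46-fold lower. A_55_P2743309 read 2268 on the KO-labelled array and 3149 on the WT array (−0.54 ± 0.09). A_51_P100856 read 1070 on the KO-labelled array and 1273 on the WT array (−0.32 ± 0.08). With the percentile scale all 3 probes were lower on the KO-labelled array by more than 3 times their technical SD. Their SD among themselves was 0.13. Even so, 706 of the 13725 genes (5.14%) were lower still, and 9.28% were further from 0 in either direction. By the brightest probes Fn1 was 0.44 lower than Vcan and 0.19 lower than F13a1 in this difference. No constant scaling of an array can alter these gaps, but the choice of probe and setting did. Vcan probe A_55_P2501751 was at −0.43, and the means of the probes were −0.47 for Fn1 and −0.20 for Vcan. After normexp Fn1 was at −0.50 and F13a1 at −0.42 by their brightest probes, and Fn1 probe A_51_P100856 was at −0.08.

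Partners of fibronectin, versican and factor XIII were described from lists of named genes. Of 17 fibronectin and versican partners, 10 were above background on both arrays, with 7 below 0, 3 above and a median of −0.15. Tgm2, a tissue transglutaminase that binds fibronectin, read 2349 on the KO-labelled array and 3961 on the WT array (−0.82). The integrin gene Itgav differed by −0.47, Tlr2 by −0.30 and Itgb3 by −0.22, with another Itgb3 probe at 0.14. Adamts5, a versican-cleaving protease, was above background on the WT array only, at least 2.93-fold lower on the KO-labelled array, and a second probe was above it on neither. Of 14 transglutaminase and clotting genes, 11 were above background on both arrays, with 9 below 0 and a median of −0.24. Besides Tgm2, they were led by the protease inhibitor gene Serpinb2 (−0.58), the urokinase gene Plau (−0.47) and its receptor gene Plaur (−0.38).

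**Figure D3:**
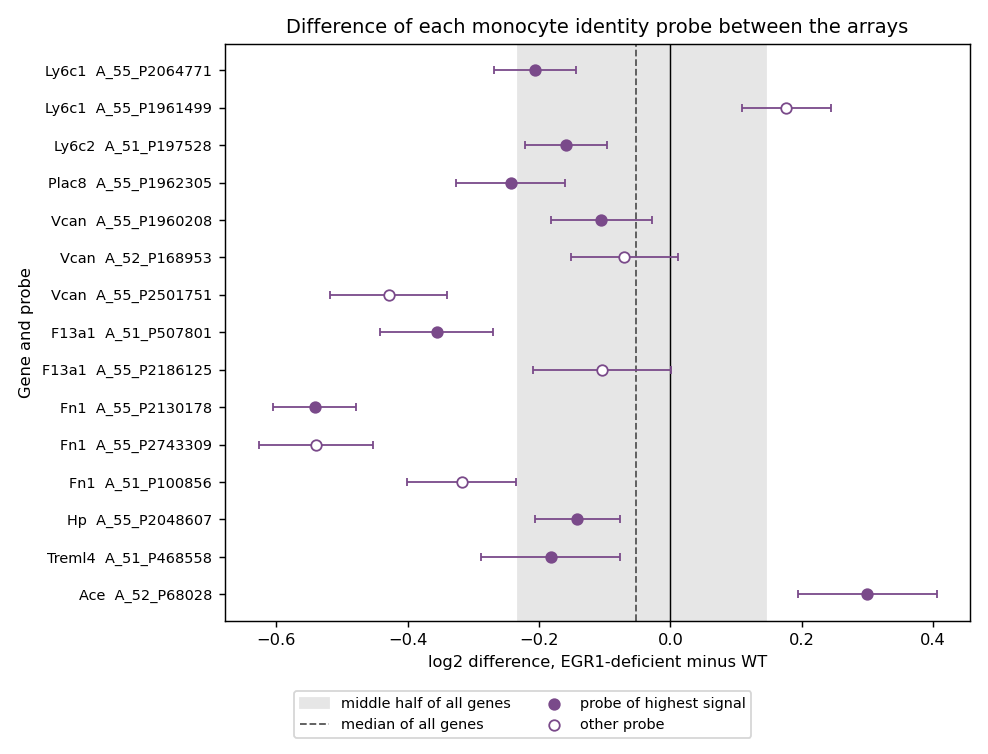
Log2 difference (EGR1-deficient minus WT) of the 15 probes above background, with bars of 1 technical SD, filled points for the brightest probe of a gene and open points for its other probes. The 3 Fn1 probes, 1 Vcan probe and 1 F13a1 probe lie left of the grey band between the 25th and 75th percentile of all genes, as Plac8 just does, and Ace and the second Ly6c1 probe lie right of it.

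The 2 non-classical genes differed in opposite directions. Treml4 on chromosome 17 encodes a receptor-like protein of the TREM family. Its bright probe, A_51_P468558, read 195.9 on the KO-labelled array and 212.3 on the WT array, which is a difference of −0.18 ± 0.11. Its other probe read 11.0 on the KO-labelled array and 12.2 on the WT array, both not well above background, so it gives no difference. Ace on chromosome 11 encodes angiotensin-converting enzyme, a peptidase of the cell surface. Its probe, A_52_P68028, read 89.4 on the KO-labelled array and 69.4 on the WT array, which is a difference of 0.30 ± 0.11, or 1.23-fold higher. Ace had the highest difference of the 9 genes, and 87.3% of all genes lay below it. Its difference shrank to 0.09 after normexp background correction and kept its sign under every setting run. Ace stood 0.48 above Treml4 and 0.84 above Fn1.

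Relatives and partners of Treml4, Ace and Hp were read from lists as well. Of 8 listed genes of the TREM cluster and its signalling adaptors, 7 had a probe and all 7 were above background on both arrays, with 6 below 0 and a median of −0.26. The largest difference was that of Treml1, a platelet receptor gene, at −0.49 and −0.50 in its 2 probes. Of 12 renin-angiotensin genes, 4 were above background on both arrays (median −0.25) and 7 on neither, among them Agt, which encodes the precursor of angiotensin, and Ren1. Agtr1a, an angiotensin receptor gene, was above background on the WT array alone, at least 5.19-fold lower on the KO-labelled array by its single probe. Of 8 haptoglobin and heme genes, 6 were above background on both arrays with a median of −0.08, and Cd163, the haptoglobin-haemoglobin receptor gene, was above it on neither.

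Wider lists of monocyte genes behaved in different ways. Of 14 other classical monocyte genes, 9 were below 0 and 5 above, with a median of −0.20. They were led by the chitinase-like gene Chil3 (−0.86), which has near-identical copies its probe may also read, the glutathione transferase gene Mgst1 (−0.50 and −0.39 in its 2 probes) and the Fc receptor gene Fcgr1 (−0.40). Ccr2, the chemokine receptor that lets classical monocytes leave the marrow, read 383 on the KO-labelled array and 416 on the WT array (−0.19). Of 16 other non-classical monocyte genes, 7 were below 0 and 9 above, with a median of 0.01. Here the ribonuclease gene Ear2, also of a family of near-identical copies, was 2-fold or more lower on the KO-labelled array (−1.47), where 1.01% of all genes were, and Cd36 differed by −0.75, Lair1 by −0.62, Fabp4 by −0.54 and Adgre4 by −0.53. Cd300e differed by 0.48 and the fractalkine receptor gene Cx3cr1 by 0.32, with another probe at 0.86. Nr4a1, the factor on which non-classical monocytes depend, read 74.0 on the KO-labelled array and 68.9 on the WT array (0.04).

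Of 11 monocyte lineage transcription factors, 7 were below 0 and 4 above, with a median of −0.09. Klf4, which promotes monocyte formation, read 146 on the KO-labelled array and 183 on the WT array (−0.39). Zeb2 differed by −0.38, with another of its 4 probes at 0.26. Irf8 differed by 0.02 and Cebpb by −0.07. No factor on this list was 1.5-fold or more apart.

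**Figure D4:**
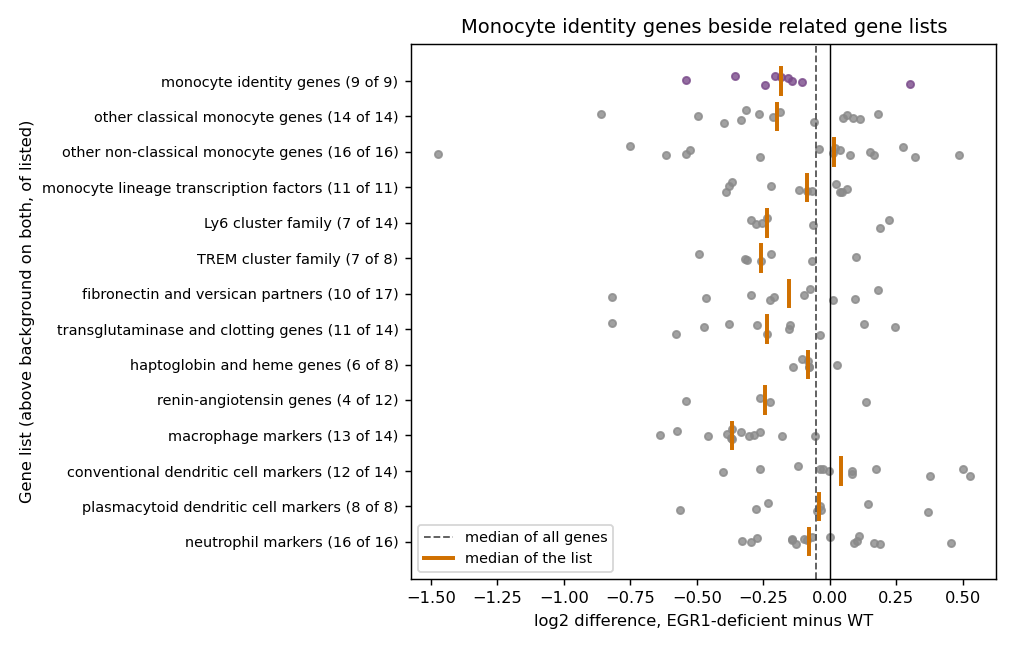
Log2 difference (EGR1-deficient minus WT) of each gene above background on both arrays, by gene list, with the list median in orange and the median of all genes (−0.05) dashed. Monocyte identity genes (median −0.18) lie near the other classical monocyte genes (−0.20), but also near fibronectin and versican partners (−0.15) and clotting genes (−0.24). Macrophage markers have a median of −0.37 and conventional dendritic cell markers of 0.04.

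Several of the 9 genes are also expressed by other cells, so markers of those cells were read beside them. In RNA of a whole culture, fewer cells of a type and less RNA per cell cannot be told apart. Of 14 macrophage markers, 13 were above background on both arrays and all 13 were below 0 (median −0.37). Their summed signal was 91780 on the KO-labelled array and 112173 on the WT array, and none was below background on both. This sum and those below are of processed signal without scaling, unlike the differences. The 75th percentile was 191.6 on the KO-labelled array and 183.0 on WT. Timd4 was above background on the WT array only, at least 1.66-fold lower on the KO-labelled array. The largest differences among them were those of the complement genes C1qc (−0.64) and C1qb (−0.58). The part of macrophage content in the lower readings of Fn1, F13a1 and the other monocyte genes was not tested.

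Neutrophils, which also make haptoglobin, were represented by 16 markers, all above background on both arrays. Their summed signal was 146788 on the KO-labelled array and 134165 on the WT array, with 9 below 0, 7 above and a median of −0.08. Of 14 conventional dendritic cell markers, 12 were above background on both arrays, of which 6 were below 0 and 6 above with a median of 0.04. Ly75 was at 0.53, Flt3 at 0.50, Kmo at −0.40 and Itgax at 0.37. Of 8 plasmacytoid dendritic cell markers, 6 were below 0 and 2 above, with a median of −0.04.

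Endothelial cells make Ly6C and angiotensin-converting enzyme, and fibroblasts make fibronectin and versican. Of 10 endothelial markers, 7 were above background on neither array, among them Cdh5, Tek and Emcn, while Pecam1 (0.42) and Kdr (0.41) were higher on the KO-labelled array. Their summed signal was 320 on that array and 238 on the WT array, and their part in the higher Ace reading was not tested. Of 10 fibroblast and stromal markers, 4 were above background on both arrays and 3 on neither (Pdgfra, Lum and Postn). Col1a2 (1.05), Pdgfrb (0.99) and Cxcl12 (0.98) were higher on the KO-labelled array and Thy1, the brightest, was at −0.16. Dcn was above background on the KO-labelled array only, at least 1.83-fold higher. The list median was 0.98, 0.31 after normexp and −0.16 with a signal of at least 50 on both arrays, which leaves Thy1 alone. The summed signal was 412 on the KO-labelled array and 291 on the WT array, and the part of these cells in the Fn1 and Vcan readings was not tested. Hepatocyte proteins gave a summed signal of 94.7 on the KO-labelled array and 180.3 on the WT array, where the single reading of Ttr was 107. Alb read 19.7 on the KO-labelled array and 14.1 on the WT array, where it was not well above background. B cell and plasma cell markers had a median of −0.71 over 7 genes (0.45 with a signal of at least 50 on both arrays), and T and NK cell markers of 0.28 over 6 (0.63 with that minimum and 0.09 after normexp). T and NK cell markers ran from −1.06 (Il2rb) to 1.62 (Klrd1). Cd3g was above background on the KO-labelled array only, at least 2.29-fold higher, and Cd3d on the WT array only, at least 1.73-fold lower on the KO-labelled array.

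**Figure D5:**
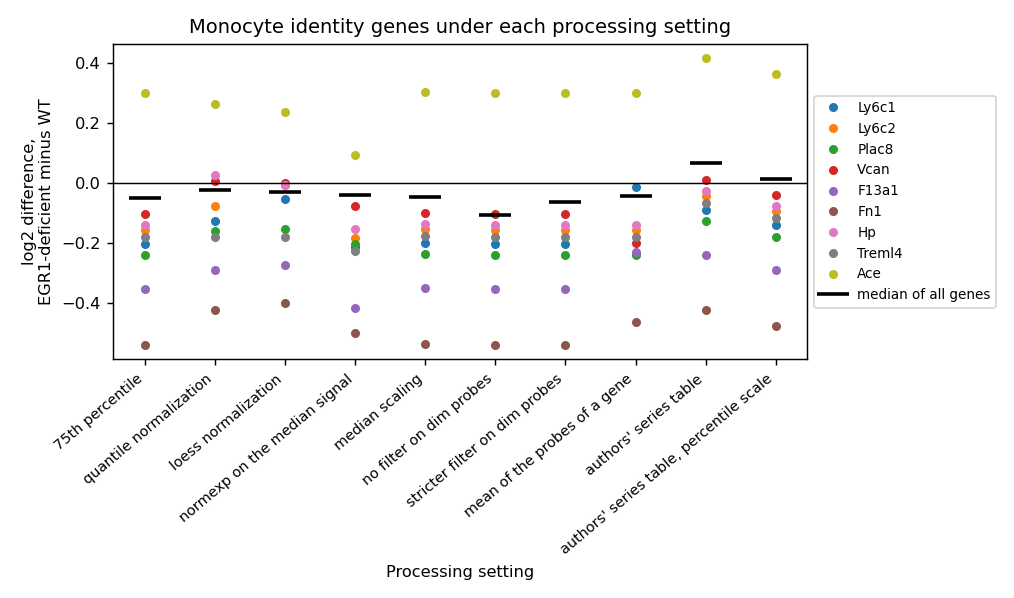
Log2 difference (EGR1-deficient minus WT) of each monocyte identity gene under the 75th percentile scaling and 9 other processing settings, with the median of all genes as a black bar. Fn1 and F13a1 are below the bar and Ace above it in every setting drawn, while Vcan and Hp lie on either side of 0.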

How the data were processed

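RNA of 2 cultures was read on 1 one-colour Cy3 Agilent array each, with a shared slide and scan per the file headers. The values are spot intensities as the authors deposited them, made with Agilent Feature Extraction 12.1.0.3 per the file headers (11.5.1.1 per the submitters' processing notes), and already background-subtracted and detrended. The authors also deposited a table of intensities that equals the processed signal times 6.18 (KO-labelled array) and 5.97 (WT), for 29296 spots above background on both arrays. Where these constants come from is not stated in the sources used here.

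From the processed signal, log2 values minus each array's 75th percentile (191.6 on the KO-labelled array, 183.0 on WT) were computed in Python 3.11.15. Control spots and 144 outlier spots were left out, and no spot was saturated. Probes were named by transcript accession through RefSeq GRCm38.p6, used for names and chromosomes because the array design names mm9. This named 34565 of 56603 probes. The probe with the highest mean signal stands for a gene. For a gene above background on 1 array only, the at-least fold sets the bright reading against the higher of the dim array's lowest signal above background (16.3 where WT is dim, 13.3 where the other is) and that of the probe itself. Array number limits the precision. The counting step was tested on simulated data.

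The 9 genes and all lists were chosen with earlier results of these data known. All probes of the 9 genes are named, and of each other list up to 4 genes with the largest difference, those above background on 1 array with an at-least fold over 1.5, and defining markers. Gpihbp1, Ly6i, Ly6d, Ly6h, Ly6m, Lypd2, Cd300e, Adgre4 and Cx3cr1 were added to show the other direction or the next gene in rank, and Spi1, Ccr2, Nr4a1, Irf8, Cebpb, Alb, H2-Ab1, Itgax and Zbtb46 for their role, all after their values were seen. A gene that this rule also names is not reported here. Alternatives were quantile and loess normalization (limma 3.58.1), filters on dim probes, the mean of a gene's probes and the authors' table, and, chosen after seeing the data, normexp on the median signal, median scaling and the authors' table on the percentile scale.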

Additional observations from a re-analysis of the deposited data

How the results depend on the processing

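No paired analysis was possible because each label has 1 array. The values here are of a gene's brightest probe, or of the mean of its probes where that was the setting. Fn1, F13a1, Plac8, Treml4, Ly6c1 and Ly6c2 stayed below 0 and Ace above 0 under all 9 alternatives. Their ranges over the alternatives were −0.54 to −0.40 for Fn1, −0.42 to −0.23 for F13a1, −0.24 to −0.13 for Plac8, −0.23 to −0.07 for Treml4, −0.21 to −0.01 for Ly6c1, −0.19 to −0.0069 for Ly6c2 and 0.09 to 0.41 for Ace. Vcan was at 0.0068 after quantile normalization and 0.0099 with the authors' series table, and Hp at 0.03 after quantile normalization. The median over the 9 genes, −0.18, was −0.054 after loess and −0.067 with the authors' series table. The median of all genes, −0.05, was 0.064 with that table, whose constants scale both arrays differently, and the gap between the 9 genes and all genes was −0.13 there as with the percentile scale. After loess that gap was −0.023, and 5 of the 9 genes lay below the median of all genes, against 8, and the cause was not tested. Genes 2-fold or more higher and lower numbered 97 and 138. They numbered 18 and 32 after normexp, 1280 and 971 without a filter on dim probes, 23 and 39 with a signal of at least 50, 103 and 68 with the authors' series table, and 85 and 77 with that table on the percentile scale. They numbered 77 and 174 after quantile normalization and 73 and 184 after loess. The filters change which genes are counted, and for the other settings the cause was not tested. The medians of the other classical monocyte genes (−0.20 to −0.09 over the alternatives), macrophage markers (−0.37 to −0.24), Ly6 and TREM clusters, fibronectin and versican partners, clotting genes and renin-angiotensin genes stayed below 0, that of T and NK cell markers above 0, and those of the other 10 lists lay on both sides of it. Normexp on the mean signal was planned and not run, and the median signal was used in its place. Treml4 and Ace read 69.4 to 212 and lie nearest to background of the 9 genes.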
